A study of Homo sapiens with 9 samples.

Results

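The arrays described here are the 3 Clariom S Human arrays of ASCs kept in differentiation media (DM) alone, out of 9 arrays in the series. They were chosen by their titles only, with no use of a measured value. ASCs are adipose-derived mesenchymal stem cells, and all 9 arrays come from ASC52telo, 1 established line of such cells made immortal with human telomerase reverse transcriptase. Cells of the DM group were held for 10 days on rat-tail collagen type I in EpiLife medium with its defined growth supplement, to which BMP-4, EGF, hydrocortisone, ascorbic acid 2-phosphate and all-trans retinoic acid had been added. This medium was given to turn ASCs into keratinocyte-like cells, and it is not a medium for making fat cells. The vehicle group had the same DM with 0.1% DMSO, and the CID group had DM with 40 μM CID-1067700 (CID), a small molecule that inhibits the GTPase Rab7, again with 3 arrays each. All groups carry the telomerase transgene, share 1 genetic background and were grown in the same additives. The series holds no array of ASCs outside DM, so the values show what these cells expressed after 10 days in the medium and not what the medium changed. The labels do not say whether the 3 arrays of a group came from separate cultures, so the spread between them may be technical.

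Cells of the stroma of fat are held to include precursors of adipocytes, fibroblasts and the cells of the vessel wall. Such cells carry surface proteins such as THY1, NT5E, ENG and CD44, secrete collagens and other matrix, and release growth factors, chemokines and complement proteins. Entry into the fat lineage runs through CEBPB and CEBPD to PPARG and CEBPA, and then to genes of the lipid droplet and of fat cell hormones such as PLIN1, FABP4, ADIPOQ and LEP. Keratinocytes of the basal layer instead carry the keratins KRT5 and KRT14, and those of the upper layers KRT1, KRT10, IVL and FLG. The questions that these 3 arrays can answer are which of these programmes gave signal and which did not.

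The values are log2 expression values from the robust multi-array average (RMA), so 1 unit is a 2-fold difference in signal. The 21448 probe sets gave 17687 named genes, and a gene with several probe sets was given by the one of highest mean on the DM arrays. Since probe sets differ in how well they bind, a rank among genes is a rank of signal and no order of transcript number. Olfactory receptor genes, which are hardly used outside the nose, gave a measure of background. The means of these 349 genes on the DM arrays had a median of 4.03, and their 95th percentile, 5.81, serves as the background bound here. A gene is called above background where its DM mean exceeds that bound. By this rule 11270 of the 17687 named genes were above background, or 63.7%, which is the share to set any gene list against. By construction 18 olfactory receptor genes also exceeded the bound, and OR2T2, with a mean of 11.25, lay farthest above it.

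The DM arrays were alike. Their medians over all probe sets were 7.14, 7.12 and 7.11, Pearson's r between any pair of them was 0.994 to 0.995, and Spearman's rho over named genes was 0.992 to 0.994. These are correlations across probe sets or genes, which are not independent replicates. Against DMSO arrays the DM arrays had an r of 0.994 to 0.995, and against CID arrays 0.991 to 0.994. Among genes above background the median SD over the 3 DM arrays was 0.151, and 95% of them had an SD of at most 0.396.

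The highest signal came from genes of varied roles. EEF1A1, which brings aminoacyl-tRNA to the ribosome, ranked first with 18.11, 18.05 and 18.11 on the 3 DM arrays. THBS1, a secreted matrix glycoprotein, ranked 3 with 17.63, 17.55 and 17.55. TUBA1B, an alpha-tubulin, and ANXA2, a membrane-binding annexin, followed at 17.29 ± 0.046 and 17.26 ± 0.092 (SD, n = 3). GPX3, a secreted glutathione peroxidase, had a mean of 17.23 and PTX3, a secreted pentraxin of innate immunity, 17.20. Of these 6 genes, GPX3 spread most, with 17.18, 16.99 and 17.51, and EEF1A1 least.

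**Figure D1:**
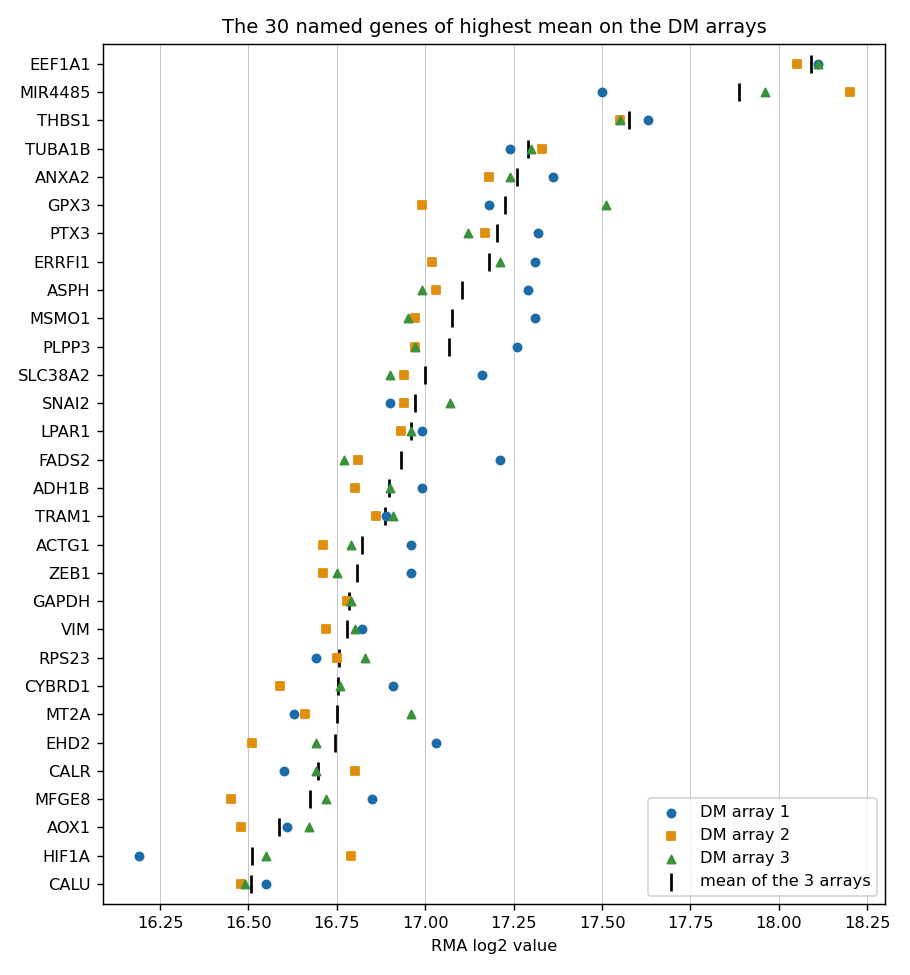
RMA log2 values (x axis) of the 30 named genes with the highest mean on the DM arrays (y axis, highest at the top). Each coloured point is 1 of the 3 DM arrays and each black bar is their mean, and the means run from 18.09 for EEF1A1 to 16.51 for CALU.

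The 30 highest genes had means of 16.51 to 18.09 and SDs of 0.0058 to 0.356. The smallest SD was that of GAPDH, the glycolytic enzyme often used as a reference gene, with 16.78, 16.78 and 16.79. The largest was that of MIR4485, with 17.50, 18.20 and 17.96. Of the 30, 26 were also among the 30 highest of each DM array taken alone, which is 86.7%. The lists of equal size drawn from the DMSO means and the CID means shared 29 and 23 of them. The transcription factors SNAI2 and ZEB1, which repress epithelial genes, stood at ranks 13 and 19, and VIM, the intermediate filament protein of mesenchymal cells, at rank 21. They had means of 16.97 ± 0.089, 16.81 ± 0.13 and 16.78 ± 0.053. Enzymes of lipid synthesis were there too, with the sterol oxidase MSMO1 at rank 10 and the fatty acid desaturase FADS2 at rank 15. ADH1B, an alcohol dehydrogenase that is high in fat tissue, had 16.99, 16.80 and 16.90, and the aldehyde oxidase AOX1 16.61, 16.48 and 16.67. ERRFI1, which binds and inhibits the EGF receptor, stood at rank 8 with 17.31, 17.02 and 17.21. MT2A, a metallothionein that binds zinc and copper, stood at rank 24 with 16.63, 16.66 and 16.96. HIF1A, the oxygen-regulated transcription factor, varied more than most of the 30, with 16.19, 16.79 and 16.55.

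The second-highest signal belongs to a probe set named for a microRNA. The hairpin of MIR4485 lies in RefSeq on GRCh38.p14 at chr11:10508270-10508326, on the minus strand, and it is shown because no other microRNA name came near its level. In the first line the mature arm is in capitals, and in the next the seed of that arm, its bases 2 to 8.
MIR4485 hairpin: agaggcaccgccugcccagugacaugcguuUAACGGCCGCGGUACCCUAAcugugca
hsa-miR-4485-3p: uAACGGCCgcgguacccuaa
MIR4485 also ranked 2 on the means of the DMSO arrays and of the CID arrays, with 17.91 and 17.92. Of the 15 genes named for a microRNA or its host transcript, 6 were above background, and the next ones were MIR6809 at 12.58 ± 0.06 and MIR4651 at 10.69 ± 0.07. The probe sequences were not examined, so whether the signal is from a precursor, a longer transcript or another RNA was not tested.

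Genes tied to the line and to the inhibitor gave high signal. TERT, the telomerase subunit that was used to immortalize the line, had 14.30, 14.51 and 14.44, and ranked 371 of the 17687 named genes. The arrays do not tell the transgene from the cell's own copy. RAB7A, the GTPase that CID targets, had 16.25, 16.12 and 16.23, and ranked 54.

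Genes that define mesenchymal stromal cells were high on every DM array. The 7 stromal markers THY1, NT5E, ENG, CD44, PDGFRA, PDGFRB and VIM were all above background, with means of 12.52 to 16.78, and the sum of their log2 values was 102.9 to 103.7 on the 3 arrays. PDGFRA, a receptor of platelet-derived growth factor and a marker of fat progenitors, had 15.71, 15.51 and 15.72, and ranked 119. THY1, a surface glycoprotein used to define mesenchymal stem cells, had 12.14, 12.72 and 12.70, with DM array 1 the low one. The wider list of surface markers had 17 of 18 measured members above background, against 63.7% of all named genes. Its highest members were the integrin subunit ITGB1 at 15.95 ± 0.025 and the aminopeptidase ANPEP at 15.84 ± 0.08. NGFR, a neurotrophin receptor used to sort stromal cells, was the exception, with 5.55, 5.25 and 5.30.

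**Figure D2:**
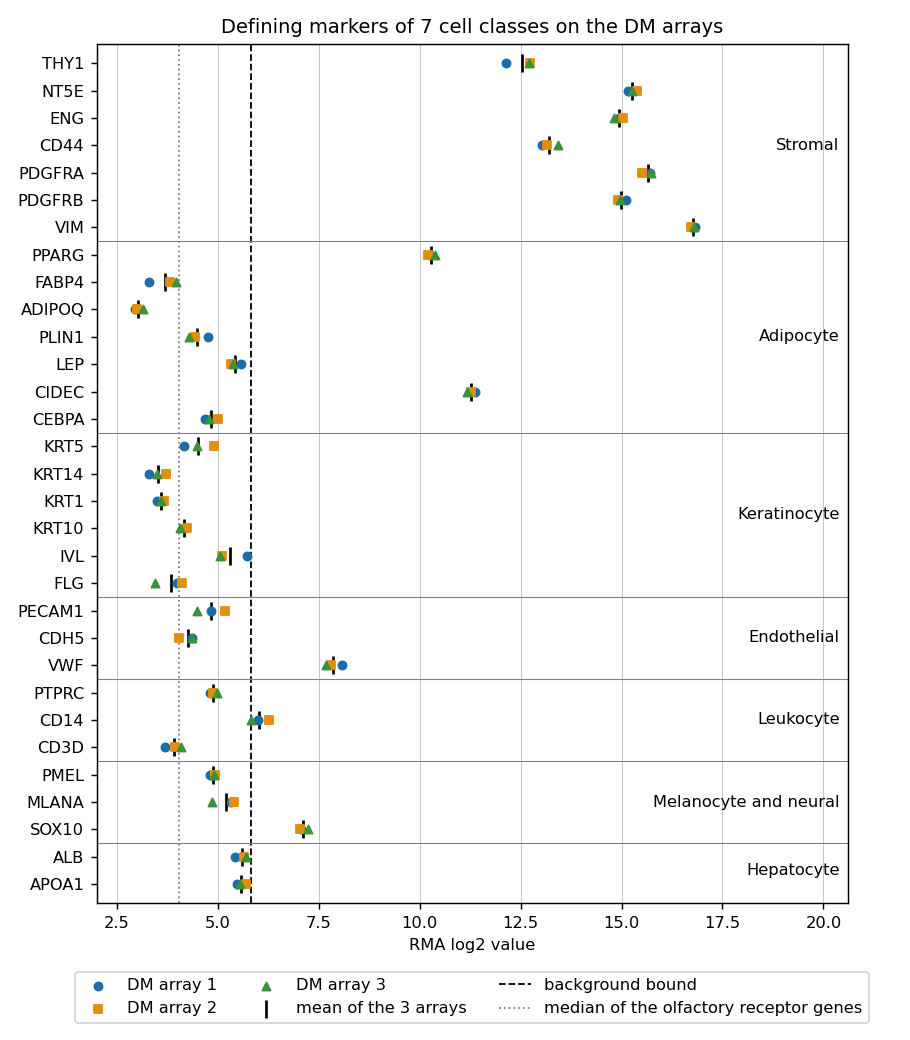
RMA log2 values (x axis) of the defining markers of 7 cell classes (y axis) on the 3 DM arrays (points) with their means (black bars). The dashed line is the background bound of 5.81 and the dotted line the median of the olfactory receptor genes, 4.03. All 7 stromal markers lie right of the bound, as do PPARG and CIDEC of the adipocyte markers, while all 6 keratinocyte markers lie left of it.

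All 15 genes of the list of mesenchymal identity were above background. Beside SNAI2, ZEB1 and VIM, FN1, the fibronectin gene, had a mean of 16.42 ± 0.14, and PRRX1, a transcription factor of limb and stromal mesenchyme, 14.25 ± 0.13. The lowest members were TWIST1 at 8.94 ± 0.032 and S100A4 at 9.87 ± 0.54. CDH2, the cadherin of mesenchymal cells, had 11.40, 11.15 and 11.44, whereas CDH1, the cadherin of epithelia, had 3.72, 3.49 and 3.57, below the median of the olfactory receptor genes. The adventitial progenitors of fat are a subset of stromal cells near vessels, and 12 of 15 of their markers were above background. MFAP5, of the elastic microfibrils, had a mean of 16.34, and DPP4, a surface peptidase, had 10.19, 10.69 and 10.65. PI16, a marker of the same cells, was at 3.47 ± 0.04 and the Wnt antagonist SFRP2 at 3.62 ± 0.23. CD34, a sialomucin that stromal cells of fat carry and often lose in culture, had 10.31, 9.23 and 10.01. Of the contractile genes, 10 of 14 were above background, led by CALD1 at 15.60 ± 0.09 and MYL9 at 15.41 ± 0.12. ACTA2, the smooth muscle actin, had a mean of 13.15, while the smooth muscle genes MYH11, LMOD1, DES and MYOCD were at 5.37, 5.78, 5.01 and 4.31.

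Of 19 adipogenic transcription factors measured, 14 were above background. PPARG, the nuclear receptor that commands fat cell formation, had 10.25, 10.20 and 10.37, at percentile 74.9 of named genes. EBF1 and EBF2, which mark fat precursors, had means of 14.17 ± 0.09 and 12.40 ± 0.12, and CEBPB and CEBPD, which act ahead of PPARG, 9.82 ± 0.22 and 9.45 ± 0.02. CEBPA, which works with PPARG in the mature cell, had 4.68, 5.01 and 4.78, below the bound. Also below it were DLK1 and GATA3, which restrain fat cell formation, ZNF423, a commitment factor, and PPARGC1A, a coactivator of heat production. GATA2, of the same family as GATA3, was above the bound at 7.14 ± 0.43.

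Of 28 adipocyte genes of lipid handling and hormones, 17 were above background, close to the share of all named genes. Among genes of fatty acid synthesis, which many cells use, the desaturase SCD was at 16.68, 16.49 and 16.33, the fatty acid synthase FASN at 12.23 ± 0.21 and the carboxylase ACACA at 11.79 ± 0.15. Of the triglyceride synthesis genes, GPAM was at 9.81 ± 0.22 and DGAT2 at 8.30 ± 0.20, while GPD1, which makes the glycerol phosphate they build on, was below the bound at 4.34 ± 0.07. PLIN2, the lipid droplet coat protein found in most cells, had 13.37, 12.95 and 13.37. CIDEC, which fuses droplets, had 11.36, 11.27 and 11.17, and PLIN1, the coat protein particular to fat cells, had 4.75, 4.42 and 4.27. FABP4, the fatty acid carrier of adipocytes, had 3.28, 3.80 and 3.95. ADIPOQ, the hormone adiponectin, had 2.95, 3.00 and 3.13, at percentile 0.803, and LEP, the hormone leptin, had a mean of 5.41 ± 0.13. All values of FABP4 and ADIPOQ lay below the olfactory receptor median of 4.03. LPL, the lipoprotein lipase, had a mean of 5.82, barely over the bound. Of the 7 adipocyte markers, PPARG and CIDEC alone were above background, and the log2 values of the 7 summed to 42.8 to 43.0 on the 3 arrays.

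The 6 defining keratinocyte markers were not above background either. KRT5 had 4.15, 4.91 and 4.48, KRT14 3.30, 3.72 and 3.49, and KRT1 3.48, 3.67 and 3.58. KRT10 had 4.17, 4.24 and 4.06, FLG, the filament-aggregating protein of the cornified layer, 3.98, 4.10 and 3.45, and IVL, a precursor of the cornified envelope, 5.71, 5.09 and 5.06. Every one of these values lay under the bound, and the 6 summed to 24.1 to 25.7 on the 3 arrays. The samples are labelled by their medium, and on these arrays the defining markers go against calling the cells keratinocytes or fat cells. That rests on array signal of RNA alone. The paper also measured KRT5, KRT14 and FLG by staining of protein and by qPCR, relative to DM cells, which was not analysed here. Of 29 genes of differentiated keratinocytes measured, 5 were above background, which is 17.2% against 63.7% of all named genes. Those were KLF4 at 8.37 ± 0.16, CNFN, CALML5, TGM3 and S100A9, and KLF4 is a transcription factor of many other cells too. Of 12 basal keratinocyte genes measured, 8 were above background. The highest, DST at 14.61, PLEC at 12.39, PERP at 11.45 and EGFR at 11.25, are also used outside the epidermis. The others were ITGA3 at 9.17 ± 0.31, the keratin KRT16 at 8.46 ± 0.09, ITGA6 at 8.04 ± 0.51 and SFN at 6.69 ± 0.25. A further 8 genes of that list were not analysed here. Of 25 genes of simple epithelia and junctions, 10 were above background. TJP1, a scaffold of tight junctions and of other cell contacts, had a mean of 13.58 ± 0.09, DSP, the desmosomal plakin, 10.99 ± 0.24, and the keratin KRT8 10.04 ± 0.25. Its keratin partner KRT18 had 5.90, 5.84 and 5.61, around the bound. EPCAM and the epithelial splicing factor ESRP1 were at 3.71 ± 0.29 and 3.45 ± 0.34.

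**Figure D3:**
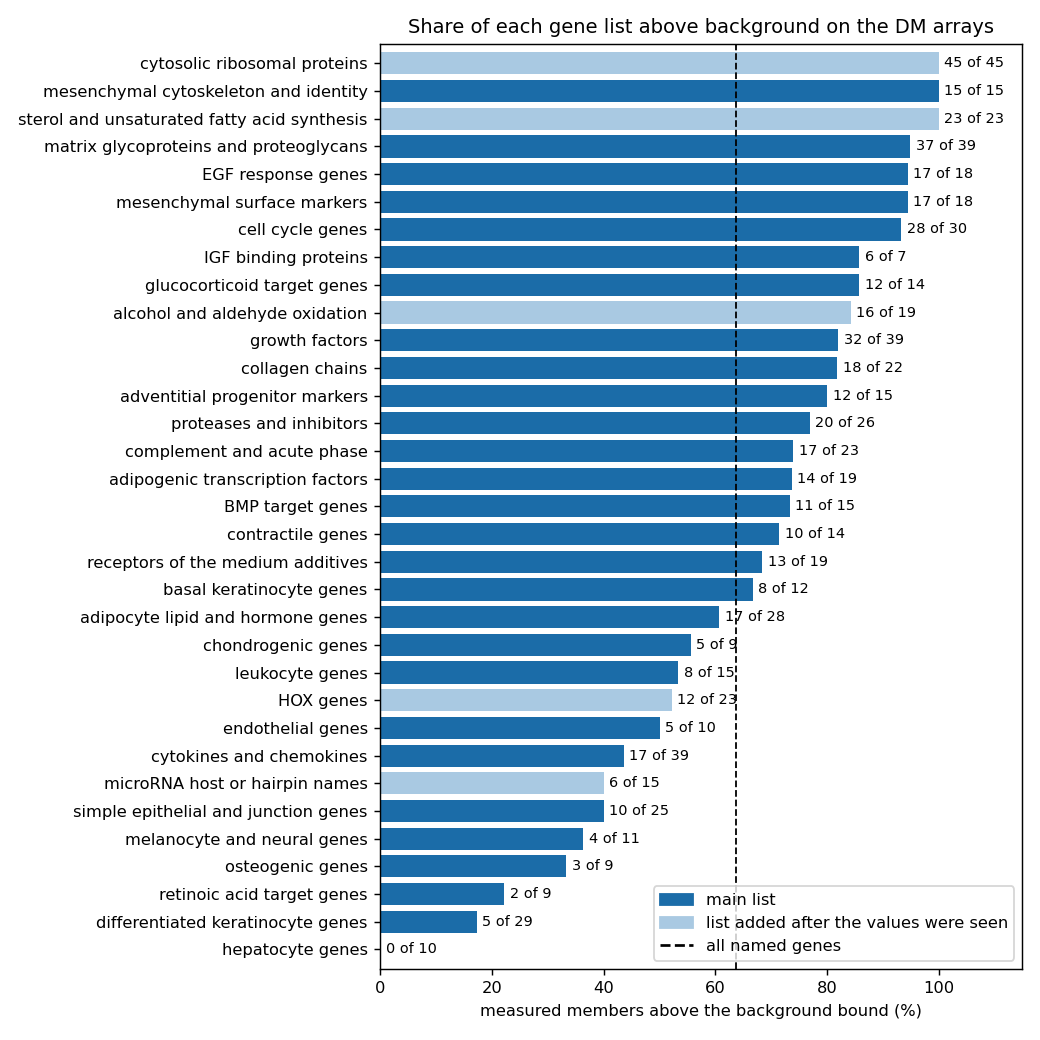
Share of the measured members of each gene list whose DM mean exceeded the background bound (x axis, in percent), with the counts beside each bar. Dark bars are the main lists, pale bars the lists added after the values had been seen, and the dashed line is the 63.7% of all named genes. Mesenchymal identity (15 of 15) lies near the top, and differentiated keratinocyte genes (5 of 29) and hepatocyte genes (0 of 10) at the bottom.

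Markers of other cells that a culture could hold were mostly low. The endothelial markers PECAM1 and CDH5 were at 4.83 ± 0.34 and 4.25 ± 0.18, while VWF had 8.07, 7.80 and 7.68. Of the 10 endothelial genes, 5 were above background, with the transcription factor ERG highest at 9.09. The leukocyte markers PTPRC and CD3D were at 4.88 ± 0.09 and 3.90 ± 0.20, and CD14 at 6.03 ± 0.23, just over the bound. Of the 15 leukocyte genes, 8 were above background, and CD68, a lysosomal protein that cells other than macrophages also make, was the highest at 12.06, 12.46 and 12.15. PMEL and MLANA of melanocytes were at 4.87 ± 0.07 and 5.19 ± 0.29, and SOX10 at 7.11 ± 0.11. No hepatocyte gene of 10 was above background, with ALB at 5.59 ± 0.15. A stricter bound, the 99th percentile of the olfactory receptor genes, was 6.83, and 55.0% of all named genes exceeded it. Above it were 3 endothelial, 5 leukocyte, 1 melanocyte or neural and 3 differentiated keratinocyte genes. Of the genes of other mesenchymal lineages, RUNX2, the osteoblast transcription factor, had 12.42, 12.58 and 12.39, while its partner SP7 was at 3.10 ± 0.33 and the bone matrix gene IBSP at 4.36 ± 0.21. The cartilage factor SOX9 was at 7.34 ± 0.32 and the cartilage proteoglycan ACAN at 3.60 ± 0.38. In all, 3 of 9 osteogenic and 5 of 9 chondrogenic genes measured were above the main bound, against 63.7% of all named genes.

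Genes of the secreted matrix were high as a group. Of 39 matrix glycoproteins and proteoglycans, 37 were above background, all but ASPN and ACAN, and 14 were among the 500 highest named genes. After THBS1 and FN1 came MFAP5, then POSTN, the periostin gene, with 16.33, 16.15 and 16.12, and TGFBI with 16.10, 16.07 and 16.14. The basement membrane genes NID1, LAMB1 and LAMC1 had means of 16.00, 15.91 and 15.38, and the small proteoglycan DCN 15.83 ± 0.06. Of 22 collagen chains measured, 18 were above background. The highest were COL6A3 and COL6A1, chains of collagen VI, at 15.86, 16.08 and 15.78 and at 15.42 ± 0.14, followed by COL12A1 at 15.13 ± 0.20. COL6A2, the other collagen VI chain named here, was at 14.42 ± 0.12. The 2 chains of collagen I gave different signals, with COL1A2 at 15.28, 14.73 and 14.65 and COL1A1 at 10.71, 11.17 and 10.68. As these come from different probe sets, they give no ratio of the chains. Of the collagens of cartilage, COL2A1 was at 8.19 ± 0.17 and COL9A1 at 5.98 ± 0.10, both above the bound. COL10A1 and COL11A1 were below it at 4.11 and 4.41.

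Of 26 proteases and inhibitors, 20 were above background. MMP2, a gelatinase that fibroblasts make, had 16.29, 16.37 and 16.49, and the membrane protease MMP14 14.12 ± 0.09. ADAMTS1, which cuts versican, had a mean of 16.16. The inhibitors TIMP3 and TIMP1 were at 14.51 and 14.49. MMP1 was at 6.10, and MMP3, MMP9, MMP10, MMP12, MMP13 and MMP7 lay below the bound at 5.16 or less.

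The growth factor genes were 32 of 39 above background. CSF1, which sustains macrophages, had 16.48, 16.37 and 16.37, at rank 36. DKK1, a Wnt inhibitor, had 15.71, 15.38 and 15.70, and ADM, the vasodilator adrenomedullin, a mean of 15.33. FGF7, a growth factor that fibroblasts make for epithelial cells including keratinocytes, had 14.79, 14.97 and 14.76. VEGFA and HGF, which act on vessels and epithelia, were at 12.68 ± 0.057 and 10.94 ± 0.085. BMP2, BMP6, IGF2, EGF, TGFA, ANGPT2 and VEGFD were below the bound. Among the IGF binding proteins, IGFBP3 stood out at 16.24, 16.03 and 16.46, and IGFBP1 alone of 7 was below the bound. Of 39 cytokines and chemokines, 17 were above background, or 43.6%, less than the 63.7% of all named genes. CXCL12, the chemokine that holds blood stem cells in the marrow, was by far the highest, with 13.99, 13.55 and 14.03. IL6 had 7.18, 7.07 and 7.08, and CXCL8 8.63, 8.75 and 7.91. The interferon-induced chemokines CXCL9, CXCL10 and CXCL11 were at 3.54, 3.81 and 4.22, and the interferons IFNB1 and IFNG at 4.40 and 3.35. Of 23 complement and acute phase genes, 17 were above background, of which PTX3 and the complement protease C1S, at 14.74 ± 0.16, were among the highest. At the stricter bound of 6.83 this count was 11 of 23, where 55.0% of all named genes were above it.

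The receptors and targets of the medium's additives were examined as sets of genes, without any array that lacked the additives. Hydrocortisone acts through the glucocorticoid receptor NR3C1, which had 12.85, 12.69 and 12.80. Of 14 known targets of that receptor, 12 were above background. They included ERRFI1 and MT2A of the 30 highest genes, GLUL, the glutamine synthetase, at 15.87, 15.23 and 15.74, and MT1X at 15.19 ± 0.20. The classical target TSC22D3 had 14.10, 13.38 and 13.83. EGF acts through EGFR, at 11.29, 11.31 and 11.15, and 17 of 18 genes of the response to EGF were above background. The immediate early gene EGR1 had 16.47, 16.20 and 15.95, and CCND1, the cyclin of entry into the cycle, a mean of 14.18. BMP-4 acts through the receptor BMPR2, at 11.99 ± 0.11, and 11 of 15 BMP targets were above background, with ID3, ID2 and ID1, inhibitors of helix-loop-helix factors, at 12.61, 12.38 and 12.08. Targets of retinoic acid stood lower. Of its receptors, RARA was at 9.94 ± 0.06 and RARG at 8.56 ± 0.12, but only 2 of 9 retinoic acid targets were above background, the transglutaminase TGM2 at 8.45 and RET at 7.04. CYP26A1, which breaks retinoic acid down and is among its most direct targets, had 5.32, 4.80 and 4.74, and RARB, a receptor that is itself a target, had 4.52, 4.73 and 3.91.

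Promoters of the metallothioneins and of a gene at background can be set side by side. A TATA box sits a short way before the start of some genes that are strongly used in certain cells. The 60 bases ahead of the RefSeq start site are shown for ANXA2 and MT2A of the 30 highest genes, for MT1X and for FLG, which was at background, to show that high and low genes shared the box. Capitals mark TATAAA and, on either strand, GGGCGG, the core of the GC box, where they occur. The windows on GRCh38.p14 are chr15:60397987-60398046 on the minus strand, chr16:56608524-56608583 and chr16:56682410-56682469 on the plus strand, and chr1:152325240-152325299 on the minus strand.
ANXA2: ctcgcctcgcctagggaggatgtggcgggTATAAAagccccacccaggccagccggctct
MT2A: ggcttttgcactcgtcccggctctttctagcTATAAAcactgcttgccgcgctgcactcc
MT1X: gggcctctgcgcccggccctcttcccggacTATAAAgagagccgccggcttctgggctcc
FLG: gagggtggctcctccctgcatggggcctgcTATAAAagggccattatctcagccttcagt
TATAAA begins 31, 29, 30 and 30 bases before the start in these genes in the order shown. Of the 14250 named genes with a RefSeq promoter, 3.59% held TATAAA within 40 to 20 bases before the start. The share was 4 of 26 among the 30 highest genes, 5.25% among the 500 highest, 2.04% of all genes above background and 6.53% of those not above it. GGGCGG on either strand within 250 bases before the start was held by 57.0% of all promoters. It was held by 73.0% of the 500 highest genes, 66.1% of genes above background and 39.6% of those not above it. The FLG window of 250 bases held 0 matches to GGGCGG, while those of ANXA2, MT2A and MT1X held 2 each. Such matches are a description of letters and not of binding.

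Genes of the cell cycle were expressed at day 10. Of 30 measured, 28 were above background. PLK1, a kinase of mitosis, had 12.60, 13.09 and 12.95, TOP2A, the topoisomerase of dividing cells, 11.56, 12.20 and 12.35, and the proliferation marker MKI67 9.91, 10.59 and 10.53. DM array 1 was the lowest for each of these 3 genes, and over the 28 genes its median deviation from the gene's own mean was -0.23. CDKN1A, the inhibitor that p53 induces, had 13.80, 14.22 and 13.84. CDKN2A, the inhibitor that is lost or silenced in many immortal lines, had 3.09, 3.20 and 3.33, at percentile 1.84.

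Some genes above background varied between the 3 DM arrays well beyond the median SD of 0.151. The 12 with the largest SD were MUSK, FOS, TMEM182, ZNF10, TECPR2, GPRC5B, PTGS2, CCDC146, CRIPTO, ACKR2, ZNRD2-DT and TMEM234, with SDs of 0.754 to 0.945. MUSK, the muscle kinase of the neuromuscular junction, had 7.94, 6.05 and 6.95. FOS, an immediate early gene that responds within minutes, had 10.62, 9.41 and 8.78, and PTGS2, an inducible enzyme of prostaglandin synthesis, 8.59, 7.26 and 7.05. DM array 1 was the highest for all of these 3. Among the 500 most variable genes above background, DM array 2 was the one farthest from the other pair in 245, DM array 1 in 157 and DM array 3 in 98. No test was made, since replicates of 1 group have no order.

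**Figure D4:**
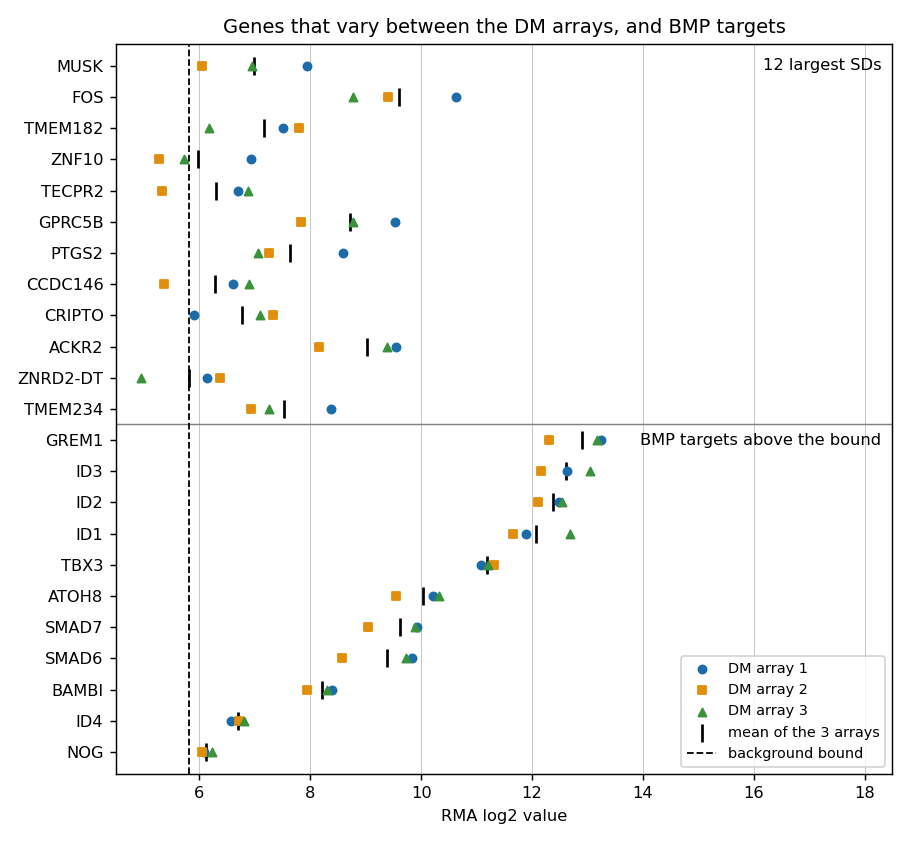
RMA log2 values (x axis) on the 3 DM arrays (points) and their means (black bars) of the 12 genes above background with the largest SD (upper block) and of the 11 BMP targets above background (lower block). DM array 2 (orange squares) is the lowest for 9 of the 11 BMP targets, among them SMAD6 at 8.57 and GREM1 at 12.30.

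The BMP targets were the list with the largest median deviation of any DM array, of the lists with a member above background. Over its 11 genes above background, the median deviation from the gene's mean was 0.11 on DM array 1, -0.42 on DM array 2 and 0.27 on DM array 3. ID1 had 11.89, 11.66 and 12.68, and SMAD6, an inhibitor in the same pathway, 9.83, 8.57 and 9.73. GREM1, a secreted BMP antagonist, had 13.24, 12.30 and 13.17, and SMAD7, another inhibitor, 9.92, 9.05 and 9.89. DM array 2 was the lowest of the group for 9 of the 11, or 81.8%, where it was the lowest for 44.0% of all genes above background. The list was singled out by its deviation on DM array 2, so this difference is partly built in. On the vehicle arrays, which carry replicate numbers of their own, DMSO array 2 was also the lowest for 9 of the 11, against 33.4% of all genes above background. There ID1 had 12.67, 11.42 and 12.51 and GREM1 12.83, 11.61 and 12.69. On the CID arrays the array numbered 2 was the lowest for 6 of the 11, or 54.55%, against 30.75% of all genes above background. Whether arrays of the same number shared a culture or a day is not in the labels, and its part in these values was not tested.

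Few genes differed between DM and vehicle arrays. In limma over all 9 arrays, with Benjamini-Hochberg adjustment over the 21448 probe sets, a gene was called at an adjusted p under 0.05 and a fold of at least 1.5. For DM against DMSO 1 of 17687 named genes was called, or 0.00565% (0.00466% of probe sets), while 1496 probe sets had an unadjusted p under 0.05. It was SGIP1, a regulator of endocytosis in neurons, with 8.10, 8.33 and 7.98 on DM arrays, against 6.63, 6.52 and 6.87 on DMSO arrays. None of the 644 list members and none of the 30 highest genes was called by limma. At an unadjusted p under 0.05 there were 54 of the list members, and limma with a trended and robust prior and the methods' t-test each called 0 of them. The call of SGIP1 was lost without DM array 1, DM array 2, DMSO array 1 or DMSO array 2.

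Against the CID arrays, 266 of the 17687 named genes were called, or 1.5% (289 probe sets, or 1.35%), of which 194 (1.10%) were higher on DM arrays and 72 (0.407%) lower. Among genes above background the share was 2.27%. The comparison uses the same DM arrays as the one with DMSO. The sources do not say whether the CID medium also held DMSO. DM against CID may thus include the vehicle, which cannot be told apart from the compound here. By other tests the methods' t-test called 1 of the 644 list members, a replicate block 52 and a trended and robust prior 74. The main limma fit called 47 of the 644, or 7.30%, and 23 of these kept their call when any 1 of the 9 arrays was left out. The lists were chosen with earlier results of these data known, so the higher share is no evidence that the lists are enriched. The 47 called members, stable or not, included 9 of 39 matrix glycoproteins and proteoglycans and 8 of 39 cytokines and chemokines. They also included 5 of 39 growth factors and 4 of 22 collagen chains. Against the DMSO arrays, 7 of the 39 cytokines and chemokines were higher on DM arrays and 1 lower at an unadjusted p under 0.05 from limma. For all 17687 named genes these counts were 618 and 522. Of the 23 genes of sterol and unsaturated fatty acid synthesis, a list written after the values were seen, 5 were called. No gene was called among mesenchymal identity, keratinocyte, epithelial, BMP target, endothelial, leukocyte or cell cycle genes by limma. Of these 151 genes, 17 had an unadjusted p under 0.05 from limma. A trended and robust prior called 2 of them, the replicate block 1 and the methods' t-test 0. Over all 17687 named genes, 1279 higher and 1027 lower on DM arrays had an unadjusted p under 0.05 from limma. These lists were put together as lists without a call, so the absence of calls among them is no separate result.

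**Figure D5:**
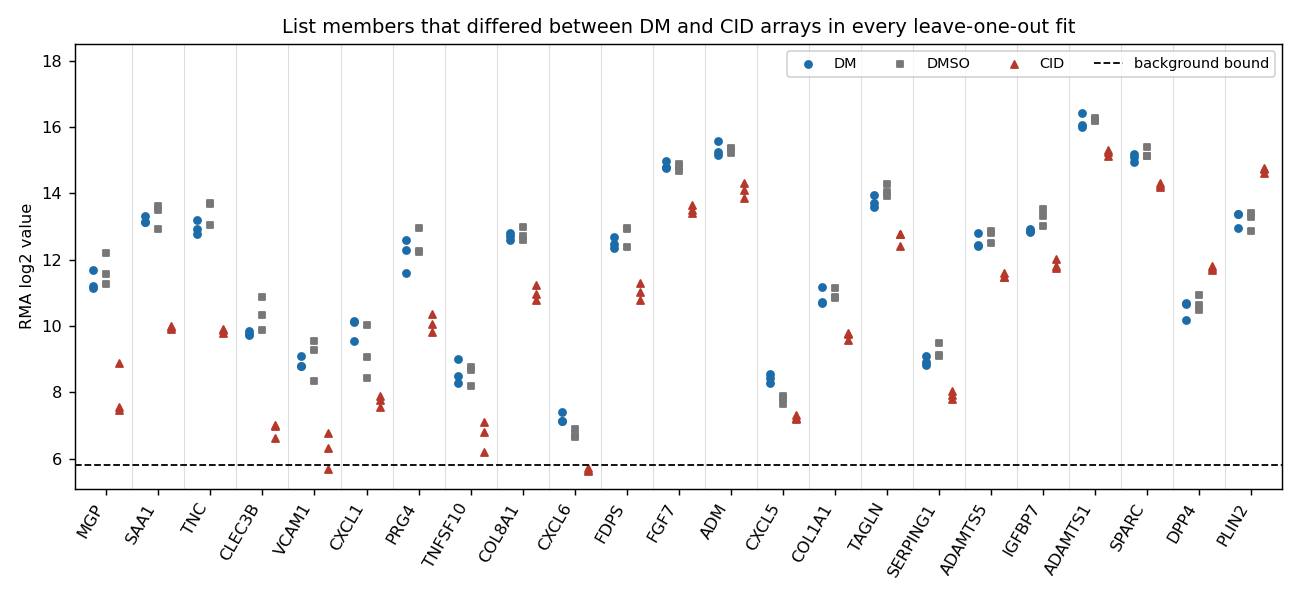
RMA log2 values (y axis) of the 23 list members (x axis) that passed the threshold for DM against CID in every fit with 1 array left out, chosen by that result. Each point is 1 array, with DM left, DMSO in the middle and CID right for each gene, and the dashed line is the background bound of 5.81. 21 genes are higher on DM than on CID arrays, and DPP4 and PLIN2 are lower.

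Of the highest growth factors, FGF7 had 14.79, 14.97 and 14.76 on DM arrays, against 13.42, 13.66 and 13.51 on CID arrays. The difference was 1.31 (SE 0.12, adjusted p = 0.000623 from limma), and the groups did not overlap. ADM differed by 1.24 (SE 0.15, adjusted p = 0.00322 from limma). COL8A1, a short-chain collagen of vessel walls, had a mean of 12.70 ± 0.11 on DM arrays and 11.00 ± 0.23 on CID arrays, a difference of 1.70. TAGLN, an actin-binding protein of smooth muscle and stromal cells, averaged 13.75 ± 0.17 on DM arrays and 12.66 ± 0.21 on CID arrays. FDPS, of the mevalonate pathway, was higher by 1.46 (SE 0.19, adjusted p = 0.00424 from limma) on DM arrays.

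Of the 30 highest genes on DM arrays, 1 was called, or 3.33%. The share was 4 of the 100 highest and 5.2% of the 500 highest, against 2.27% of genes above background and 1.5% of all named genes. At an unadjusted p under 0.05 from limma there were 11 of the 30, all higher on DM arrays. These sets were picked by their DM means, which favours values that are higher on DM arrays. The direction and the shares are therefore partly built in. The 1 called was the amino acid carrier SLC38A2, with a difference of 0.61 (SE 0.12, adjusted p = 0.0374 from limma). It lost its call in 8 of the 9 fits with 1 array left out, all but the one without DMSO array 3. Of the 5 markers, PDGFRA was called, with 15.71, 15.51 and 15.72 on DM arrays, against 14.95, 14.93 and 15.12 on CID arrays. Its difference was 0.65 (SE 0.13, adjusted p = 0.0337 from limma), and the call was lost without DM array 1, DM array 3, DMSO array 1 or any of the CID arrays, with an adjusted p of up to 0.124. PPARG differed by 0.14 (SE 0.15, adjusted p = 0.751 from limma) and THY1 by -0.39 (SE 0.18, adjusted p = 0.416 from limma), so that neither passed the threshold. FABP4 and ADIPOQ were below the background bound on DM, DMSO and CID arrays alike, with CID means of 4.21 and 2.96.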

How the data were processed

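Total RNA of ASC52telo cells was hybridised to 9 Clariom S Human arrays. The authors made 1 value per probe set by RMA in Transcriptome Analysis Console, which were deposited as log2 values. For the version of that program, and for its variant of RMA, the sources used here give nothing. RMA brings all arrays to 1 distribution, so a shift of all genes together cannot be seen. The number of arrays limits the precision, with 3 per group.

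Probe sets were named from GEO's platform annotation, which can be old. A check by gene ID against RefSeq (GRCh38.p14) changed 0 symbols. 17709 probe sets had 1 symbol, 0 had several and 3739 had none. Named genes were ranked by their mean over the 3 DM arrays. The text names the 30 highest genes, the 12 above background with the largest SD, members of gene lists, the 5 markers PPARG, FABP4, ADIPOQ, THY1 and PDGFRA, and RAB7A and TERT. SGIP1 and OR2T2 were named after their values were seen. The arrays, lists and tests were chosen with earlier results of these data known. The lists of sterol synthesis, ribosomal proteins, HOX genes, microRNA names, and alcohol and aldehyde oxidation were written after the values had been seen.

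DM was compared with DMSO and with CID in limma 3.58.1 (R 4.3.3), with 1 model over all 9 arrays, which was tested on simulated data. Promoter and microRNA sequences are RefSeq's. Figures were drawn with matplotlib 3.10.9. Alternatives were other background bounds, scalings, filters and tests, a replicate block, and leaving out each array. The staining, qPCR and protein data of the study were not analysed here, and a few genes are not reported here.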

Additional observations from a re-analysis of the deposited data

How the results depend on the processing

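The count of genes above background was 11270. It was 9722 with the 99th percentile of the olfactory receptor genes as the bound, 9332 with the median of all probe sets, 8539 with the 95th percentile of the hair keratin-associated protein genes, 10886 where all 3 DM arrays had to pass, and 11190 to 11369 with 1 DM array left out. Of 261 counts of list members above background under these alternatives, 231 stayed within 1.5 times their value. The others were 7, 8 and 12 lower counts under the 3 higher bounds in that order, 2 lower counts where all 3 arrays had to pass, and 1 hepatocyte gene in place of 0 without DM array 3. DM against DMSO gave 1 called probe set, and 0 with only the 6 arrays compared, with a replicate block or with an ordinary t-test. It gave 5 with a trended and robust prior, and 0 to 1 with 1 array left out. DM against CID gave 289 called probe sets. It gave 476 with a trended and robust prior, 416 without dim probe sets, 275 with the replicate block and 137 to 284 with 1 array left out. An ordinary t-test gave 2 after Benjamini-Hochberg adjustment, with 2383 at an unadjusted p under 0.05. The paper names a t-test for its data in general, and for its array calls it gives thresholds without a test. The cause of these changes was not tested. Arrays of the same number in different groups deviated from their group means with correlations of -0.05 to 0.07 over all probe sets. The numbers were not taken to pair the samples. A correlation over all probe sets does not show whether a few genes, such as the BMP targets, moved together. The median SD among DM arrays was 0.151, 0.150 with median centring, and 0.106 to 0.138 with 1 DM array left out, each then an SD of 2 arrays. Of 766 values of called genes under the alternatives, 595 kept their call and 0 changed direction.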

Other observations

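Gene groups that were picked after the values had been seen are given here as values. All 23 genes of sterol and unsaturated fatty acid synthesis measured were above background on the DM arrays, with a median of 12.48. MSMO1, FADS2 and SCD led them, followed by ACLY, which makes the acetyl-CoA for lipid synthesis, at 15.20 ± 0.11 (SD, n = 3) and HMGCS1, an early enzyme of the mevalonate pathway, at 14.55 ± 0.25. Of 19 genes of alcohol and aldehyde oxidation, 16 were above background, with ADH1B and AOX1 far ahead of ADH5 at 13.56, while ADH1A, ADH4 and ALDH3A1 were below the bound at 5.13, 5.24 and 5.32. All 45 cytosolic ribosomal protein genes measured were above background, with means of 12.83 to 16.76.

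Of 23 HOX genes measured, which record a cell's position along the body axis, 12 were above background. HOXA2, at 3.52 ± 0.26, was the only gene of the HOXA cluster among the 23, so that cluster is mostly not covered. HOXC8 had 12.05, 11.95 and 12.06 on the DM arrays and HOXC10 11.97, 11.78 and 12.17, while the next one, HOXB7, was at 9.20 ± 0.14. In the same cluster HOXC9 was at 8.95 ± 0.23 and HOXC11 at 7.88 ± 0.30, both above the bound. HOXC12 and HOXC13, which lie beyond HOXC11, were at 3.63 ± 0.20 and 3.82 ± 0.15, and HOXB13 was at 4.38 ± 0.09.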
